A study of Homo sapiens with 11 samples.

Results

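The miRNAs described here are numbered from hsa-miR-6715 to hsa-miR-6895, with any letter suffix and arm, a block of annotations that holds many mirtron-type hairpins. Members were chosen by their raw counts: a row of the deposited count tables was taken when it had 5 or more raw counts in at least 3 of the 11 libraries, which 134 of the 353 rows in this number range did, out of 2576 rows in all. The members comprised 50 miRNAs of the 5p arm, 83 of the 3p arm and 1 with no arm in its name (miR-6844), from 105 hairpins, 29 of which had both arms among the members. Of the other 219 rows in the range, 59 had no count in any library.

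The cells were SH-SY5Y, a line derived from a human neuroblastoma, which become neuron-like under all-trans retinoic acid (ATRA). Cells of all 4 groups received 10 µM ATRA for 7 days. In co-treatment, 10 µM H2O2 was present during those 7 days (3 libraries), and in pre-treatment 10 µM H2O2 was given for 72 h before ATRA (3 libraries). The controls of each experiment were differentiated without H2O2 (3 libraries in co-treatment and 2 in pre-treatment, where the study's methods describe triplicates). All libraries came from 1 cell line. The study's methods describe its replicates as biological, and p-values measure the spread between these libraries.

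Mirtrons are miRNA precursors that are cut out of a transcript by the splicing machinery in place of the nuclear enzyme Drosha, and are then cut by Dicer like other hairpins. In a conventional mirtron both ends of the hairpin are the ends of a short intron, and in a tailed mirtron only 1 end is a splice site while the other end is trimmed. The 3p arm of a mirtron therefore tends to hold the pyrimidine-rich stretch and the AG at the end of the intron, and the 5p arm pairs with it and tends to be rich in G. Mirtrons are usually of low abundance, and the levels of their hosts and the rate of splicing can both affect how much of them is made.

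RefSeq mature sequences were matched for 117 of the 134 members, and 86 of their 92 hairpins had exactly 1 site in the GRCh37 (hg19) genome, found by an exact search. All 107 members placed in this way lay within an annotated intron, of a protein-coding host for 85 of the 86 hairpins, and 29 of the 107 also overlapped an exon of another transcript. The introns had a median length of 235.5 bases, 32 of the 86 were under 150 bases, and 15 of the hairpins were on chromosome 19. The 3′ end of the mature miRNA was the last base of an intron for 54 of 68 placed 3p members and lay within 5 bases of it for 67. The 5p arms stood differently: 3 of 39 began at the first base of an intron and 4 began within 10 bases of it.

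**Figure D1:**
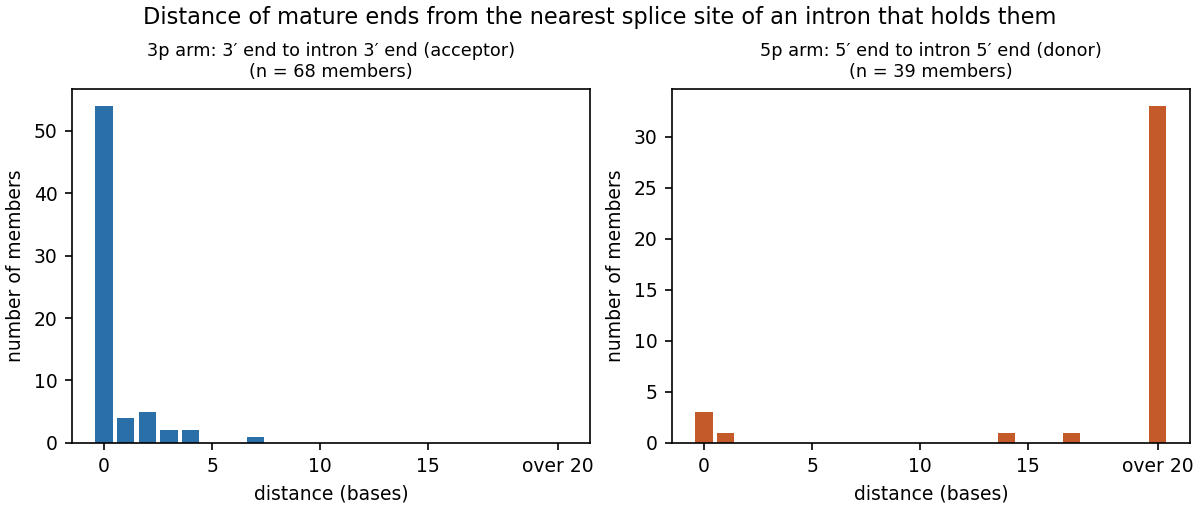
Number of placed members by the distance, in bases, from the 3′ end of the 3p arm to the nearest intron acceptor (left, 68 members) and from the 5′ end of the 5p arm to the nearest intron donor (right, 39 members). The bar at 0 holds 54 of the 3p members and 3 of the 5p members, and most 5p arms began over 20 bases from a donor.

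The 3p sequences below are members whose levels are given later and whose last base is the last base of their intron. The seed (bases 2 to 8) and the last 2 bases are in capitals, and each ends in AG, as 58 of the 74 3p members with a sequence did (78.4%, beside 10.9% of 320 other 3p miRNAs tested).
miR-6726-3p: cUCGCCCUgucucccgcuAG
miR-6798-3p: cUACCCCCcaucccccuguAG
miR-6803-3p: uCCCUCGCcuucucacccucAG
miR-6855-3p: aGACUGACcuucaaccccacAG
miR-6738-3p: cUUCUGCCugcauucuacucccAG
miR-6853-3p: uGUUCAUUggaacccugcgcAG
The hairpin of miR-6726 lay at chr1:1231490-1231550 (GRCh37, minus strand) in a 101-base intron of ACAP3. That of miR-6798 lay at chr19:49513163-49513229 (plus strand) in a 90-base intron of RUVBL2, and that of miR-6803 at chr19:55756554-55756618 (minus strand) in a 79-base intron of PPP6R1. The hairpin of miR-6855 was at chr9:132631884-132631950 (plus strand) in USP20, that of miR-6738 at chr1:155921064-155921127 (minus strand) in ARHGEF2, and that of miR-6853 at chr9:35732919-35732992 (plus strand) in CREB3. C and U made up a median of 72.7% of the bases of the 3p members, beside 54.5% in the other 3p miRNAs.

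The 5p sequences are shown with every G in capitals, because G was the base that set this arm apart in composition. G made up a median of 50.0% of the bases of the 43 5p members with a sequence, beside 27.3% in 301 other 5p miRNAs, and a run of GGG was present in 88.4% of them, beside 30.2%.
miR-6877-5p: aGGGccGaaGGGuGGaaGcuGc
miR-6851-5p: aGGaGGuGGuacuaGGGGccaGc
miR-6807-5p: GuGaGccaGuGGaauGGaGaGG
miR-6777-5p: acGGGGaGucaGGcaGuGGuGGa
miR-6751-5p: uuGGGGGuGaGGuuGGuGucuGG
The hairpin of miR-6877 lay at chr9:135927383-135927446 (plus strand) in GTF3C5, and that of miR-6851 at chr9:33467867-33467933 (minus strand) in NOL6. The hairpin of miR-6777 was at chr17:17716794-17716859 (minus strand) in SREBF1, and that of miR-6751 at chr11:64897388-64897450 (minus strand) in SYVN1. The hairpin of miR-6807 filled a whole 92-base intron of TRIM28 (chr19:59061652-59061743, plus strand), so that its 5p arm begins with the GU of the splice donor. In all, 5 of the 86 placed hairpins (miR-6765, miR-6807, miR-6821, miR-6831 and miR-6834) had the same first and last base as an intron. The median GC content was 59.1% in both arms of the members, beside 50.0% in 753 other miRNAs chosen by the same counts.

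Members rarely shared a seed. Only 2 seeds occurred in more than 1 member with a sequence, each in a pair of members, shown with bases 2 to 8 in capitals.
miR-6764-3p: uCUCUGGUcuuuccuugacag
miR-6824-3p: uCUCUGGUcuugccaccccag
miR-6733-5p: uGGGAAAGacaaacucagaguu
miR-6739-5p: uGGGAAAGagaaagaacaagua
The hairpins of miR-6764 (YY1, chromosome 14), miR-6824 (SLC26A6, chromosome 3), miR-6733 (EBNA1BP2, chromosome 1) and miR-6739 (IPO9, chromosome 1) were in introns of 4 different genes. No mature sequence had more than 1 exact site in the genome.

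Libraries held between 5343953 and 8927582 counts in total, and 3 counts corresponded to 0.561 CPM (counts scaled to the library total) in the shallowest and 0.336 CPM in the deepest, limits that cover counting error only. Neuronal miRNAs (6 listed, all in the tables) summed to between 12603 and 38321 CPM, although miR-124-3p, the best known neuronal miRNA, had 3 counts or fewer in 9 of the 11 libraries. Their sum was 30946 to 38321 CPM in co-treatment controls and 15907 to 19425 CPM in co-treatment H2O2 libraries. In pre-treatment it was 12603 and 20726 CPM in the controls and 29324 to 35389 CPM in the H2O2 libraries. Most of each sum was miR-137, so the sums describe that miRNA above all, and its changes were not shared by all 6. miR-128-3p, the next most abundant, had 9145, 13916 and 13944 counts in co-treatment controls and 15575, 9889 and 12246 with H2O2. One library stood apart from the rest: in pre-treatment control 1 the 7 listed blood-cell miRNAs summed to 123 CPM and the 5 measured of 6 listed epithelial miRNAs to 188 CPM, against 14.0 to 27.5 CPM and 39.1 to 53.4 CPM in the other 10 libraries. Most of this came from miR-223-3p, with 540 counts against 4 in pre-treatment control 2, and miR-205-5p with 1007 against 32. The listed miRNAs did not all stand higher in control 1. There miR-142-3p had 182 counts against 62 in control 2 and miR-200c-3p 178 against 131. But miR-451a had 6 in each, miR-200a-3p 22 against 40 and miR-200b-3p 15 against 35. The part of these values in the members' results was not tested. The main pre-treatment medians, counts of calls and tallies of direction are therefore given with and without that library. Values given once come from both controls. These include counts of members whose groups did not overlap, calls among mirtrons outside this number range and median differences between experiments. Summed mesenchymal miRNAs were 15168 to 17348 CPM in co-treatment controls and 10285 to 14812 CPM with H2O2, with no overlap. Most of each sum was miR-143-3p, and the listed miRNAs did not all move alike. miR-214-3p had 16253, 12272 and 6907 counts in those controls and 12441, 16687 and 10529 with H2O2, which overlapped. miR-199a-5p fell, with 42, 35 and 43 counts against 13, 16 and 5. The liver miRNA miR-122-5p was at 99.3 and 235 CPM in the pre-treatment controls and at 547 to 786 CPM in the H2O2 libraries. The part of these values in the members' results was not tested either.

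Members were low in every library. The median member had 101 counts over all 11 libraries, with a range of 25 to 1502, and 42 members had 5 or more counts in every library. The threshold of membership divided rows that were close in level: miR-6804-3p, miR-6754-3p and miR-6758-5p, with 5 or more counts in 3 libraries and 59, 56 and 55 counts in all, were just inside it, and miR-6823-5p, miR-6822-5p and miR-6759-5p, with 2 such libraries and 45, 34 and 33 counts, were just outside. The 3p arm was found more often, since 47.7% of 3p rows in the range were members, against 28.6% of 5p rows, and the median total was 114 counts for 3p members and 80.5 for 5p members. No member reached 5 counts in the libraries of 1 group only, but 3 (miR-6742-3p, miR-6843-3p and miR-6861-3p) did so only in H2O2 libraries and 2 (miR-6728-5p and miR-6799-3p) only in controls.

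By mean CPM after TMM scaling (edgeR's trimmed mean of M-values, which corrects library totals for composition), the 5 most abundant 3p members were miR-6747-3p (18.4), miR-6716-3p (13.0), miR-6800-3p (10.1), miR-6868-3p (8.34) and miR-6786-3p (6.92). The 5 most abundant 5p members were miR-6877-5p (6.01), miR-6730-5p (5.77), miR-6847-5p (5.06), miR-6882-5p (4.12) and miR-6866-5p (3.82). These orders describe reads captured by the library kit and not molecules. The leading member, miR-6747-3p, ranged from 2.52 to 53.8 CPM over the 11 libraries, and both of these extremes were pre-treatment controls.

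Summed over the members of an arm, levels were higher with H2O2 in co-treatment. The 50 5p members summed to 50.0, 57.8 and 42.4 CPM in the controls and 91.6, 81.7 and 110 CPM in the H2O2 libraries, and the 83 3p members to 166, 188 and 132 CPM and to 254, 208 and 246 CPM. Neither arm's groups overlapped, and the ratio of group means was 1.89 for the 5p arm (50.1 ± 7.70 to 94.5 ± 14.6 CPM, SD, n = 3 each) and 1.46 for the 3p arm (162 ± 28.4 to 236 ± 24.5 CPM). The sums take in members too low to test, and as sums over chosen members they have no p-value. In bulk RNA, a change in the share of cells that make a miRNA and a change in its level per cell cannot be told apart.

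In pre-treatment the sums depended on which control was used. The 5p members summed to 161 and 87.1 CPM in controls 1 and 2 and to 69.0, 62.4 and 62.9 CPM in the H2O2 libraries. The 3p members summed to 409 and 177 CPM in the controls and to 175, 169 and 154 CPM in the H2O2 libraries. The log2 ratio of H2O2 to control was −0.94 for the 5p arm and −0.82 for the 3p arm with both controls, and −0.36 and −0.02 without control 1. Thus the 3p sum of control 2 exceeded the highest H2O2 library by less than the H2O2 libraries differed among themselves, whereas its 5p sum stood above all 3 of them. The SD over the 2 controls was 52.2 CPM around a mean of 124 CPM for 5p and 164 CPM around 293 CPM for 3p.

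**Figure D2:**
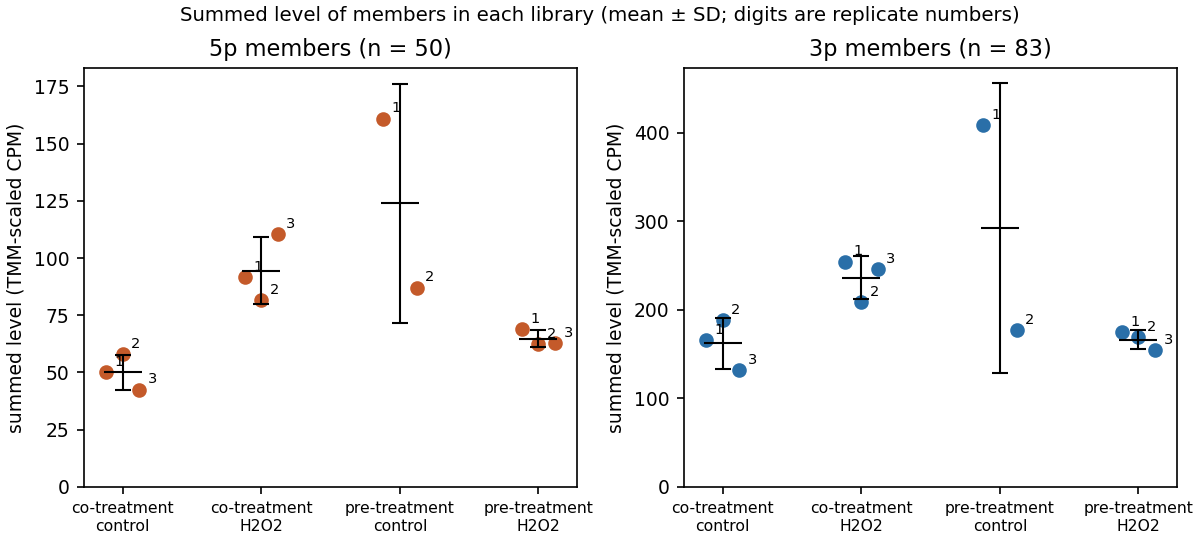
Summed level of the 50 5p members (left) and 83 3p members (right) in each library, in TMM-scaled CPM, with group mean and SD (bars) and replicate numbers beside the points; TMM scaling was done within each experiment. In co-treatment the H2O2 points lie above the control points in both arms, and in pre-treatment control 1 (161 and 409 CPM) stands far above control 2 (87.1 and 177 CPM).

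The balance of arms also differed between libraries. The 5p arm held 23.2%, 23.5% and 24.3% of the counts of the 133 members with a named arm in the 3 co-treatment controls and 26.5%, 28.2% and 31.0% in the 3 H2O2 libraries, with no overlap. In pre-treatment it held 28.3% and 33.0% in controls 1 and 2, and 28.3%, 26.9% and 29.0% after H2O2, which overlapped. No test was made on these shares. Counts of the 3p arm exceeded those of the 5p arm in all 11 libraries, by 2.03 to 3.31 times.

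Single members were compared with edgeR's exact test, fitted over all miRNAs above the low-count filter in an experiment, and a miRNA was called when its Benjamini-Hochberg FDR was below 0.05 and its absolute log2 fold change (log2FC, H2O2 against control) above 0.6. In co-treatment 88 members passed the filter and 15 were called, 14 higher with H2O2 and 1 lower. This is 17.0% of the members tested, beside 26.2% of all 790 miRNAs tested, but by direction it is 15.9% higher and 1.14% lower, beside 10.6% higher and 15.6% lower overall. The median log2FC was 0.94 over 29 5p members and 0.48 over 58 3p members, beside −0.04 over all miRNAs tested, and 65 of the 88 were above 0. The groups did not overlap for 33 members (37.5%, beside 41.6% overall), 30 of them higher with H2O2 (34.1%, beside 19.5% overall). At the same range of mean level, the median over 342 other miRNAs was −0.06.

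Of the 5p arm, 6 members were called, all higher with H2O2. miR-6851-5p had control counts of 1, 1 and 2 and H2O2 counts of 19, 7 and 18. Its summed, scaled counts were 10.4 times as high with H2O2, with an exact 95% counting interval of 3.79 to 39.9, and edgeR's exact test gave FDR = 0.000298. Both groups were low. miR-6851-5p passed the low-count filter only through the H2O2 libraries, so their standing above every control followed from the filter.

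miR-6847-5p had 12, 13 and 10 counts without H2O2 and 53, 29 and 67 with it, a log2FC of 1.98 (SE 0.40 from the quasi-likelihood fit, as for every SE given here, exact test FDR = 0.000214). miR-6877-5p, the most abundant 5p member, had 21, 22 and 9 counts against 59, 40 and 79, a log2FC of 1.68 (SE 0.41, exact test FDR = 0.00142). In both, every H2O2 library exceeded every control. miR-6807-5p, from the intron-filling hairpin of TRIM28, had 2, 6 and 9 counts against 13, 20 and 24 (log2FC 1.71, SE 0.59, exact test FDR = 0.0181). The 2 others were miR-6730-5p, with 16, 30 and 8 counts against 43, 31 and 83 (log2FC 1.46, exact test FDR = 0.0153), and miR-6780a-5p, with 3, 7 and 5 against 12, 11 and 20 (log2FC 1.44, exact test FDR = 0.0498). The last lies close to the threshold and was called in 1 of 6 fits that each left out 1 library.

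The 8 called 3p members were also all higher with H2O2. miR-6747-3p, the most abundant member, had 42, 111 and 35 control counts and 226, 118 and 183 with H2O2 (log2FC 1.41, SE 0.36, exact test FDR = 0.00235). Its control 2 approached the lowest H2O2 library in raw counts, in a deeper library, and in CPM the groups stayed apart. miR-6786-3p, from an intron of HGS on chromosome 17, had 27, 35 and 21 counts against 91, 62 and 68 (log2FC 1.33, SE 0.34, exact test FDR = 0.00235), and miR-6800-3p had 29, 57 and 34 against 121, 68 and 97 (log2FC 1.17, SE 0.32, exact test FDR = 0.00615). The H2O2 libraries of all 3 lay above the controls. The other 5, with log2FC from 1.02 to 1.28, were miR-6760-3p (CUX2), miR-6803-3p, miR-6798-3p, miR-6855-3p and miR-6726-3p. For miR-6855-3p the counts were 23, 31 and 14 against 65, 42 and 48, and for miR-6726-3p, the smallest of the called rises, 26, 17 and 19 against 54, 38 and 42 (exact test FDR = 0.0397).

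One member was called lower in co-treatment. miR-6844, whose name gives no arm, had control counts of 39, 37 and 37 and H2O2 counts of 29, 4 and 7 (log2FC −1.66, SE 0.49, exact test FDR = 0.00615), and its groups did not overlap. Among abundant members that were not called, miR-6868-3p had 47, 74 and 67 counts against 44, 44 and 33 (log2FC −0.67, exact test FDR = 0.153). miR-6716-3p (PHLDB1), with 72, 101 and 64 against 141, 66 and 95, overlapped between groups (log2FC 0.24).

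The 5 members miR-6851-5p, miR-6847-5p, miR-6877-5p, miR-6747-3p and miR-6786-3p were called in each of the 6 fits that left out 1 library. The number of members called ranged from 6 without H2O2 library 3 (beside 13.9% of all miRNAs) to 23 without control 2 (beside 35.3%), and was 8 without control 3 (beside 14.3%) and 8 without H2O2 library 1 (beside 15.7%). edgeR's quasi-likelihood test called 11 of the 15 (beside 22.9% of all miRNAs), 10 of them higher with H2O2 (beside 8.73%). At an unadjusted exact test p below 0.05 there were 28 members, 31.8% of those tested, beside 40.1% of all.

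GC content of the mature miRNA moved with log2FC in co-treatment, among members as among other miRNAs. From 45% to under 55% GC the median log2FC was 0.04 over 21 members and 0.04 over 224 other miRNAs. From 55% to under 65% it was 0.84 over 34 members and 0.47 over 118 others, and at 65% and over, a class of 13 members, 0.84 beside 0.55 over 66 others. In the 5 members under 45% GC it was −0.39, beside −0.73 over 219 others. Among the 73 tested members with a sequence, the quasi-likelihood test called 8 (beside 21.9% of all tested with a sequence) and, after each library's trend on GC content had been removed, 1, miR-6851-5p with a log2FC of 2.69 (beside 6.71% of all). In the same step the median went from 1.04 to 0.56 over 23 5p members and from 0.47 to 0.13 over 50 3p members.

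**Figure D3:**
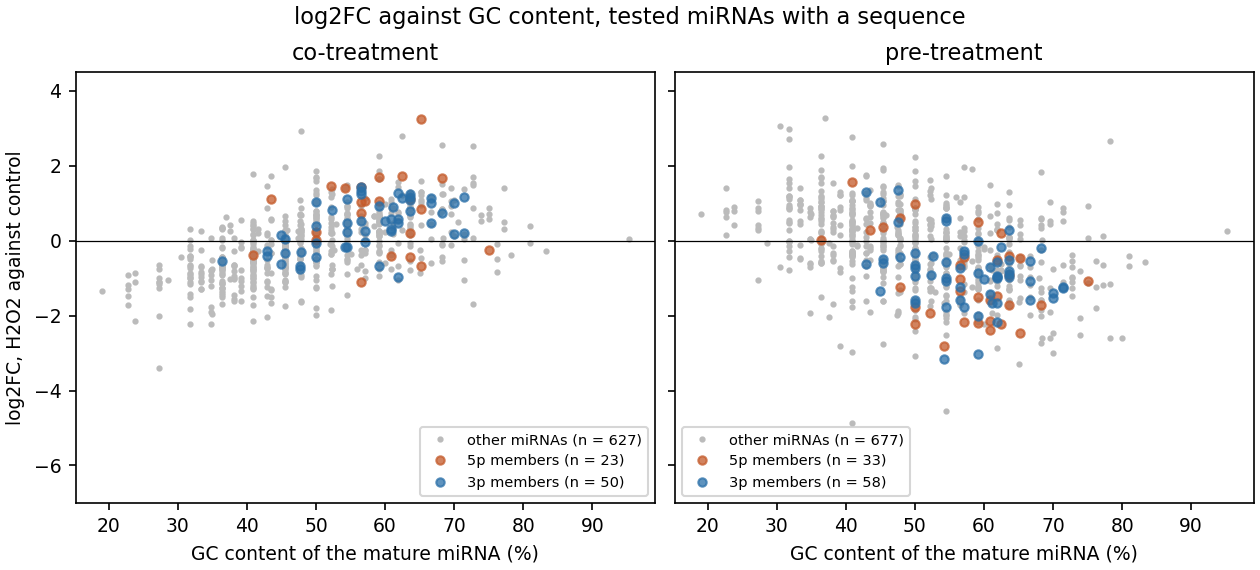
log2FC (H2O2 against control) against the GC content of the mature miRNA, in percent, for tested miRNAs with a sequence in co-treatment (left) and pre-treatment (right); grey points are other miRNAs and coloured points are members by arm. In co-treatment points rise from left to right and in pre-treatment, drawn with both controls, they fall, in members and in other miRNAs.

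In pre-treatment 107 members passed the filter and 15 were called, all lower with H2O2. This is 14.0% of the members tested, beside 15.3% of 868 miRNAs called in either direction, 9.91% called lower and 5.41% called higher. The median log2FC was −1.04 over 40 5p members and −0.88 over 66 3p members, beside −0.19 over all miRNAs tested and −0.14 over 435 others at the same range of level, and 90 of 107 were below 0. The groups did not overlap for 47 members (43.9%, beside 46.0% overall), 39 of them lower with H2O2 (36.4%, beside 22.7% overall). The quasi-likelihood test called none of the members (beside 1.96% of all miRNAs, and 1.50% lower), with 30 at an unadjusted p below 0.05 (beside 29.3% of all), and DESeq2 called 8 (beside 15.6%).

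The pre-treatment calls comprised 9 members of the 5p arm and 6 of the 3p arm. miR-6885-3p had the lowest FDR, with 63 and 64 control counts and 14, 23 and 18 with H2O2 (log2FC −1.93, SE 0.40, exact test FDR = 0.00266). Its controls were alike, and without control 1 its log2FC was −1.97. miR-6738-3p (sequence above) had 10 and 8 control counts and 1 count in each H2O2 library, and its summed, scaled counts were 10.1 times as high in the controls, with an exact 95% counting interval of 2.93 to 53.3. miR-6761-3p (ALDH2), with 8 and 8 against 2, 1 and 0, gave 8.93 times (2.56 to 47.8), and miR-6831-5p (APBB3), with 12 and 10 against 4, 1 and 0, gave 7.37 times (2.72 to 24.9). These 3 rest on a few counts. All 3 passed the low-count filter only through the controls, so that both controls exceeded every H2O2 library followed from the filter.

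Among the 8 further 5p calls, miR-6777-5p had 36 and 12 control counts and 6, 6 and 2 with H2O2 (log2FC −2.46, exact test FDR = 0.0168). miR-6751-5p had 16 and 16 against 4, 5 and 1 (log2FC −2.38, exact test FDR = 0.0143), and miR-6740-5p (RNPEP) had 22 and 15 against 6, 5 and 2 (log2FC −2.22, exact test FDR = 0.0135). miR-6894-5p (KDM5C) had 17 and 12 against 3, 5 and 2, and miR-6884-5p (MED24) had 18 and 23 against 7, 5 and 8. In all of these the groups did not overlap, and controls 1 and 2 differed most for miR-6777-5p. For miR-6751-5p, miR-6740-5p and miR-6894-5p only the controls passed the low-count filter, so the separation followed from it. Of the 3p arm, miR-6853-3p had 45 and 22 counts against 13, 10 and 9 (log2FC −1.78, exact test FDR = 0.0168).

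Control 1 was the highest of the 5 pre-treatment libraries for 95 of the 134 members (70.9%), beside 309 of the 868 miRNAs tested (35.6%), and the highest of all 11 libraries for 67 (50.0%, beside 25.8%). Control 2 stood above all 3 H2O2 libraries for 48 members (35.8%, beside 35.4% of the miRNAs tested). It stood below all 3 for 43 (32.1%, beside 43.2%). These ranks of both controls used CPM without TMM scaling. The 134 members include some that did not pass the filter, whereas the 868 miRNAs all did. Without control 1 the median log2FC was −0.31 over the 5p members and 0.02 over the 3p members, and 19 members were called, 13 lower and 6 higher (beside 33.2% of all 868), of which 9 were among the 15. Those 9 were miR-6738-3p, miR-6761-3p, miR-6831-5p, miR-6751-5p, miR-6740-5p, miR-6885-3p, miR-6884-5p, miR-6798-3p and miR-6726-3p. In such a fit the lone control is assumed to vary like the H2O2 libraries. Without control 2 the median log2FC was −1.48 over the 5p members and −1.33 over the 3p members. Without any 1 of the 3 H2O2 libraries no member was called by the exact test (8 to 14 of all 868). In those fits 18 or 19 members had an unadjusted exact test p below 0.05, a number with no share over all miRNAs to set beside it.

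The members called higher in pre-treatment when control 1 was left out included abundant ones. miR-6747-3p had 381 counts in control 1 and 17 in control 2, and 144, 129 and 116 with H2O2, so its H2O2 libraries lay between the controls. Its log2FC was −0.70 with both controls (exact test FDR = 0.653) and 2.74 without control 1. miR-6800-3p had 240 and 10 against 87, 56 and 25 (−1.26 and 2.26), and miR-6855-3p had 82 and 9 against 42, 31 and 26 (−0.57 and 1.67). For these 3, which control was used decided the direction. The abundant miR-6866-5p, whose controls were alike, had 23 and 20 against 35, 25 and 32 (log2FC 0.35, exact test FDR = 0.692).

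**Figure D4:**
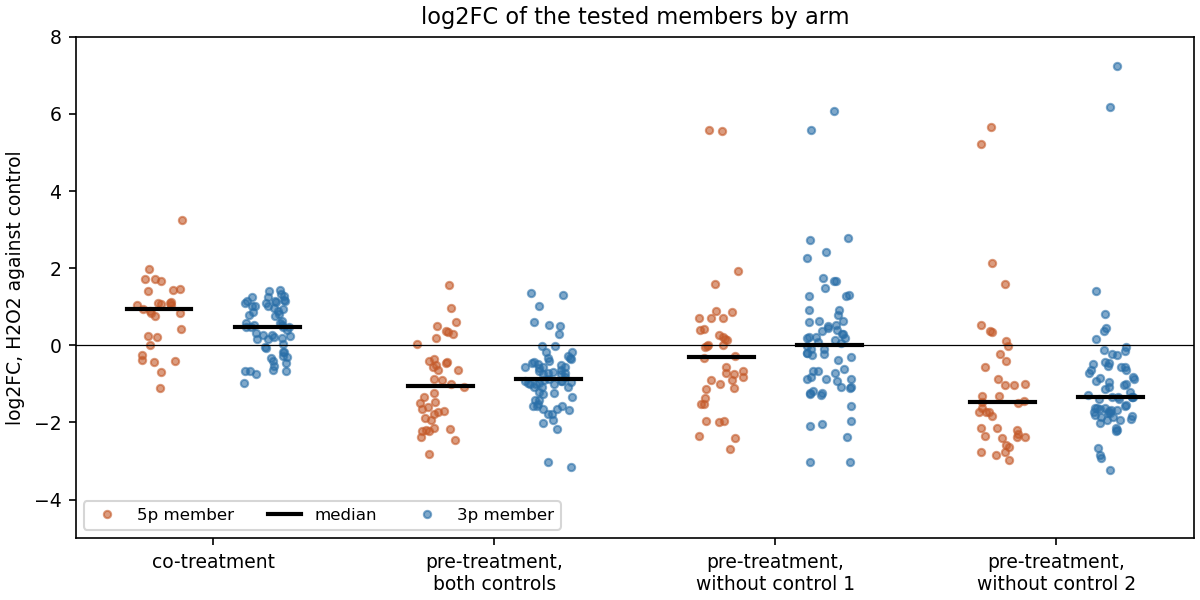
log2FC (H2O2 against control) of each tested member by arm, in co-treatment (29 5p and 58 3p members) and in pre-treatment (40 and 66) with both controls, without control 1 and without control 2; black bars are medians. The medians are 0.94 and 0.48 in co-treatment, −1.04 and −0.88 in pre-treatment with both controls, and −0.31 and 0.02 without control 1.

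With both controls, GC content moved with log2FC in pre-treatment in the other direction, and without control 1 this was not seen. With both controls the median was −0.69 over 30 members from 45% to under 55% GC (−0.02 over 244 others), −0.99 over 44 members from 55% to under 65% (−0.62 over 131 others) and −1.25 over 12 members at 65% and over (−0.79 over 78 others). The 5 members under 45% had a median of 0.30, beside 0.45 over 224 others. Without control 1 the members' medians from the lowest to the highest class were 0.16, −0.28, −0.02 and 0.14, and those of the other miRNAs 0.26, −0.07, −0.15 and 0.16. With the trend removed from the libraries of both controls and H2O2, a step not made without control 1, the median went from −1.25 to −0.91 over 33 5p members and from −0.91 to −0.41 over 58 3p members.

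Across the experiments, which share no library, 82 members were tested in both. Of these, 55 were above 0 in co-treatment and below 0 in pre-treatment, 6 the reverse, 15 below 0 in both and 6 above 0 in both, with both controls. The 55 are 67.1% of the members, beside 33.4% of all 764 miRNAs tested in both. This majority rested on control 1: without it 32 were above 0 in co-treatment and below 0 in pre-treatment (39.0%, beside 24.3% of all), 12 the reverse, 9 below 0 in both and 29 above 0 in both. The 5 members called in both experiments were higher with H2O2 in co-treatment and lower in pre-treatment: miR-6847-5p, miR-6877-5p, miR-6807-5p, miR-6798-3p and miR-6726-3p. miR-6877-5p went from 122 and 46 pre-treatment control counts to 25, 37 and 21 with H2O2 (log2FC −1.71, SE 0.49, exact test FDR = 0.0247), and miR-6847-5p from 107 and 40 to 34, 22 and 21 (−1.65, SE 0.46, exact test FDR = 0.0241). miR-6807-5p had 49 and 30 counts against 14, 14 and 18, and miR-6798-3p 54 and 36 against 21, 15 and 14. Without control 1 the log2FC of miR-6798-3p was −1.29 and that of miR-6726-3p −1.09, and both were still called, whereas miR-6847-5p (−0.83), miR-6877-5p (−0.91) and miR-6807-5p (−1.14) were not.

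**Figure D5:**
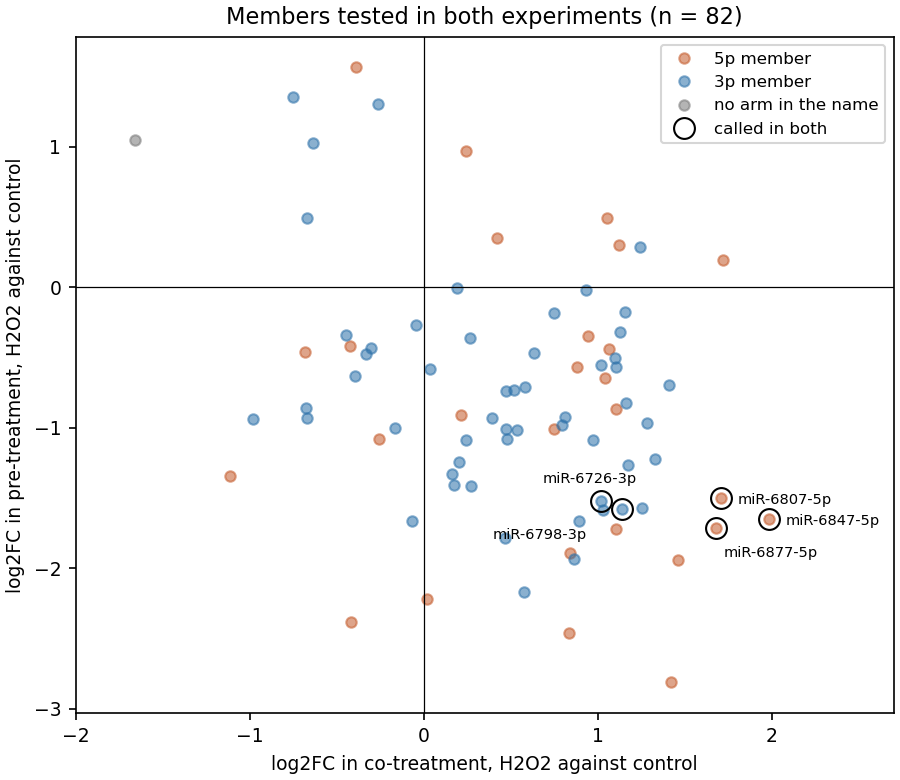
log2FC in pre-treatment (both controls) against log2FC in co-treatment for the 82 members tested in both, coloured by arm; rings mark the 5 called in both experiments. The lower right part, higher with H2O2 in co-treatment and lower in pre-treatment, holds 55 of the 82 members and all 5 ringed ones, and would hold 32 without pre-treatment control 1.

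Whether H2O2 acted differently in the 2 experiments was read from the interaction term of a joint quasi-likelihood fit (log2FC in pre-treatment minus log2FC in co-treatment, 11 libraries, FDR below 0.05). Of 122 members tested, 28 were called (23.0%, beside 27.3% of 945 miRNAs), 27 with a lower log2FC in pre-treatment (beside 14.4% overall) and 1, miR-6844, with a higher one (beside 12.9%). The 27 comprised 15 members of the 5p arm and 12 of the 3p arm, and in this fit all 27 were above 0 in co-treatment and below 0 in pre-treatment. The median difference was −1.94 over 44 5p members and −1.47 over 77 3p members. For miR-6847-5p it was −3.65 (SE 0.61, quasi-likelihood FDR = 0.00184), for miR-6885-3p −2.78 (SE 0.53, FDR = 0.00261) and for miR-6877-5p −3.41 (SE 0.65, FDR = 0.0027). In pre-treatment, miR-6844 had 15 and 10 control counts and 26, 33 and 27 with H2O2, against its fall in co-treatment, and its difference was 2.73 (SE 0.75, FDR = 0.0156). Without pre-treatment control 1, 10 members were called (beside 20.6% of all), 9 of them among the 28, and without control 2 there were 59 (beside 47.2%). Experiment and any batch between the experiments cannot be told apart in the levels themselves.

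Where both arms of a hairpin were members, neither arm led throughout. Of these 29 hairpins, 17 had more 5p counts and 12 more 3p counts, and the 5p share ran from 5.72% in miR-6800 (50 counts against 824) to 84.9% in miR-6761 (258 against 46), with a median of 54.4%. The 3p arm was above the 5p arm in all 11 libraries for 4 hairpins (miR-6800, miR-6794, miR-6741 and miR-6739), and the 5p arm above the 3p arm for 3 (miR-6783, miR-6866 and miR-6761). In co-treatment both arms were tested for 16 hairpins, with the same sign for 13, and in pre-treatment for 20, with the same sign for 15 (13 with both arms lower) with both controls and for 11 (4 with both arms lower) without control 1.

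The 5 two-armed hairpins with most counts were miR-6800, miR-6730, miR-6794, miR-6847 and miR-6783, and the arms of miR-6847 stood furthest apart in co-treatment among the 4 with both arms tested. Its 5p arm was called in both experiments, while its 3p arm had 5, 17 and 11 counts against 10, 9 and 20 in co-treatment (log2FC 0.19, SE 0.56) and 9 and 10 against 14, 11 and 7 in pre-treatment (log2FC −0.005, SE 0.58, and −0.10 without control 1, beside −0.83 for 5p). Both arms of miR-6730 lay on the same side, with a log2FC of 1.46 for 5p and 0.80 for 3p in co-treatment and −1.94 and −0.98 in pre-treatment. The pre-treatment direction of miR-6730 turned without control 1, to 0.28 for 5p (161 and 18 counts in the controls, 34, 27 and 14 with H2O2) and 0.62 for 3p (49 and 9 against 24, 18 and 6). The arms of miR-6783 were at 0.88 and 1.13 in co-treatment and −0.57 and −0.32 in pre-treatment (−0.66 and 0.19 without control 1), and none of the 4 values from all libraries was called. For miR-6794, 5p was at −0.26 and 3p at 0.54 in co-treatment, within 1 SE of 0 for 5p (0.63). The difference between arms of a hairpin was not tested.

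As a comparison list, 20 arms of miRNAs described as mirtrons outside this number range (miR-877, miR-1224 to miR-1229 and miR-1236 to miR-1238) were read in the same fits. In each experiment 12 were tested. In co-treatment 2 were called (16.7%, beside 26.2% of all miRNAs), both higher with H2O2 (beside 10.6%), with a median log2FC of 0.48. In pre-treatment 4 were called (33.3%, beside 15.3% of all), all lower (beside 9.91%), with a median of −1.25. Without control 1 that median was 0.12, with 6 values above 0 and 6 below. Without control 2 it was −1.82. On the difference between experiments 5 of 13 were called (38.5%, beside 27.3% of all), all lower in pre-treatment (beside 14.4%).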

How the data were processed

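The values used are raw read counts per mature miRNA, deposited without normalization, which the authors made from QIAseq small RNA libraries of 11 samples. Per the labels and the study's methods, reads were checked with FastQC 0.11.8, trimmed with Cutadapt 2.10 (Phred minimum 28), aligned to hg19 with Bowtie2 2.4.1 and counted with HTSeq 0.7.2. The miRBase release, the use of molecular identifiers, and the treatment of strand and of reads with several sites are not given in the sources used here. The deposited tables of the authors' own comparisons (log2 fold changes, log CPM, p-values and FDR) were not used.

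Samples were grouped by their labels. Each experiment was then tested on its own, H2O2 libraries against their controls, by edgeR's exact test (version 4.0.16, R 4.3.3) with TMM scaling. A miRNA entered the fit with a CPM above 0.936 in 3 or more co-treatment libraries, or above 0.721 in 2 or more pre-treatment libraries, each the CPM that 5 counts give in the shallowest library. Thresholds (FDR 0.05, absolute log2FC 0.6) follow the study. SEs came from quasi-likelihood fits, and DESeq2 1.42.0 was an alternative. GC trends were lowess curves with a span of 0.5. Sequences are from RefSeq (its table lists GRCh38), and positions from an exact search of GRCh37 with GENCODE introns; the distance given is to the nearest splice site of any annotated intron that holds the miRNA. Intervals and limits cover counting error only. Scripts were tested on simulated data.

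Named are the members called in either experiment or on the difference, the 5 most abundant of each arm, the 5 two-armed hairpins with most counts, and 3 rows on each side of the membership threshold. The 4 members with shared seeds, the 5 intron-filling hairpins, the 4 hairpins and 3 hairpins with 1 arm above the other throughout and the 5 members of 1 kind of library were named after their values were seen. The members and lists were chosen with earlier results of these data known. Replicate numbers were not taken as pairs, since deviations of log CPM from the group mean correlated weakly between same-numbered libraries. The values were 0.04, −0.16 and −0.16 in co-treatment and 0.22 and −0.05 in pre-treatment. The deviations of the pre-treatment controls mirror each other, so the pre-treatment values say little about pairs.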

Additional observations from a re-analysis of the deposited data

Results flagged for a closer look

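For 28 of 122 members (23.0%, beside 27.3% of all 945 miRNAs) the response to H2O2 differed between the experiments by the interaction test (edgeR quasi-likelihood fit of 11 libraries, FDR below 0.05). Each value is the log2FC in pre-treatment, with both controls, minus that in co-treatment. Fewer were called without pre-treatment control 1, as given above. In the pre-treatment fits, miR-6730-5p was at −1.94 with both controls and 0.28 without control 1, whereas miR-6884-5p was at −1.77 and −1.95. The 15 of the 5p arm were miR-6730-5p (−3.46), miR-6734-5p (−3.78), miR-6735-5p (−2.76), miR-6741-5p (−3.92), miR-6777-5p (−3.33), miR-6780a-5p (−4.02), miR-6807-5p (−3.20), miR-6831-5p (−4.23), miR-6834-5p (−3.05), miR-6847-5p (−3.65), miR-6851-5p (−5.28), miR-6871-5p (−2.85), miR-6877-5p (−3.41), miR-6884-5p (−3.44) and miR-6894-5p (−3.50). The 12 of the 3p arm were miR-6726-3p (−2.53), miR-6760-3p (−2.27), miR-6772-3p (−2.83), miR-6780b-3p (−1.75), miR-6786-3p (−2.58), miR-6798-3p (−2.71), miR-6803-3p (−2.01), miR-6816-3p (−2.53), miR-6820-3p (−2.92), miR-6842-3p (−2.08), miR-6853-3p (−2.27) and miR-6885-3p (−2.78). miR-6844 was the one with a higher value in pre-treatment (2.73). The value of miR-6851-5p rests on 1, 1 and 2 counts in co-treatment controls and, in pre-treatment, 11 and 0 counts in controls and 0, 2 and 2 with H2O2. No group had 4 libraries or more, so no library was examined as an outlier within its group.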

How the results depend on the processing

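Members called in co-treatment (15) numbered 6 with a replicate block (beside 111 of all 790 miRNAs) and 4 in a single fit of both experiments (beside 84 of 945). They numbered 8 without GC correction in the quasi-likelihood fit of miRNAs with a sequence (beside 153 of 700) and 1 with the GC trend removed (beside 47 of 700). Leaving out 1 library at a time gave 6 to 23 (beside 110 to 279 of 790). Members called in pre-treatment (15) numbered 15 with library size scaling (beside 148 of 868) and 11 in a single fit of both experiments (beside 150 of 945). More were called without control 2, which leaves a lone control, so that number is not given. The calls numbered 0 by the quasi-likelihood test (beside 17 of all 868 miRNAs), 8 by DESeq2 (beside 135 of 868) and 1 without the low-count filter (beside 61 of 1519). They numbered 0 with a replicate block (beside 15 of 868) and 0 without and with GC correction among those with a sequence (beside 12 and 2 of 768). Of 42 members with 5 or more counts in all libraries 6 were called (beside 15.3% of all). Leaving out any 1 H2O2 library gave 0 (beside 8 to 14 of 868). Those called on the difference (28) ranged from 10 to 59. For the listed mirtrons outside the range, the 2 co-treatment calls became 1 with the filter applied in all libraries (beside 202 of 604 miRNAs). They became 0 with a replicate block, in a single fit or with GC removed, and 0 to 4 with 1 library left out. Their 4 pre-treatment calls rose in number with either control left out, which leaves a lone control, so those numbers are not given. They became 2 by quasi-likelihood, with a replicate block or without GC correction among those with a sequence. They became 0 with GC removed, and 1 or 2 with 1 H2O2 library left out. For these fits the numbers over all miRNAs are those given above.

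The median log2FC in co-treatment was 1.26 (5p) and 0.72 (3p) with the filter in all libraries and 0.56 and 0.13 with GC removed, and ranged from 0.87 to 1.23 and from 0.36 to 0.80 with 1 library left out. In pre-treatment the 5p median was −0.56 with the filter in all libraries, −0.72 with a replicate block, −1.28 in a single fit, −1.35 with membership at 10 or more counts and −0.50 with membership in all libraries, and ranged from −1.48 to −0.31. The 3p median was −0.41 with GC removed and ranged from −1.33 to 0.02. The log2 ratio of sums ranged from 0.79 to 1.03 (5p) and 0.49 to 0.68 (3p) in co-treatment and from −1.31 to −0.36 and −1.30 to −0.02 in pre-treatment. Without pre-treatment control 1 the direction reversed for the 3p median (0.019), and the log2 ratio of 3p sums was −0.0216. miR-6747-3p, miR-6800-3p and miR-6855-3p stood at 2.74, 2.26 and 1.67 without control 1 and at −1.62, −2.19 and −1.39 without control 2. The cause of these changes was not tested. Of 1165 further comparisons of single members with an alternative, 888 stayed on their side of the threshold, 213 lost and 31 gained a call, 30 values moved and 3 reversed with a call, signs of uncalled values aside. The replicate block is a fit that assumes pairs which the correlations do not show. With 2 pre-treatment controls and low counts, depth limits what can be shown: 3 counts stand for up to 0.561 CPM, near the level of the lowest members.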
